A study of Homo sapiens with 6 samples.

Results

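The solute carrier genes that were expressed in SEM::EGR3 or SEM::mock cells are described here, compared between the lines by the class of substrate that each carrier moves. Members were chosen by their name and by their measured counts. A gene entered when its symbol had the form of a solute carrier (SLC, family number, letter, member number) and when it reached at least 50 counts in each of the 3 SEM::EGR3 libraries or in each of the 3 SEM::mock libraries. Of 335 solute carrier symbols in a table of 35410 genes, 173 passed. The 8 symbols SLC2A1, SLC2A3, SLC4A1, SLC7A11, SLC11A2, SLC25A37, SLC25A38 and SLC40A1 were left out by name, 7 of which had passed, so that 166 genes of 41 families remained. SEM, an established line, came from a human proB leukemia with the KMT2A::AFF1 fusion. SEM::EGR3 holds an EGR3 transgene that doxycycline switches on, and SEM::mock holds the empty vector. Both lines received doxycycline at 1 µg/mL for 48 h before RNA was taken, and each was sampled as 3 biological replicates. MACE-Seq, which reads the 3′ ends of polyadenylated transcripts, gave the counts. Whether either line was grown from a clone is not given in the sources used here.

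Solute carriers are membrane proteins that move small molecules across the cell surface or the membranes of organelles, either down a gradient or by coupling the movement to an ion or to a counter-substrate. The SLC25 family sits in the inner mitochondrial membrane and links the cytosol to the matrix, the SLC35 family brings nucleotide sugars into the Golgi apparatus and the endoplasmic reticulum, and most other families work at the plasma membrane or in lysosomes. Leukemia cells that divide in culture draw amino acids, glucose, phosphate, vitamins and nucleosides through these carriers, and antifolates and nucleoside analogs enter cells by some of them.

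The EGR3 counts followed the labels. EGR3 was counted 8, 10 and 6 times in SEM::mock and 9768, 4952 and 5557 times in SEM::EGR3, and the files do not separate transgene from endogenous transcripts. The cell type markers did not follow the labels in both lines. Of 12 B lineage markers, 9 had at most 3 counts in every SEM::mock library, PAX5, EBF1, CD79A, CD22, IGLL1 and IGHM among them, and the 12 summed to 2.64 to 5.86 CPM (counts per 1000000 listed counts, after scaling) there against 651 to 684 CPM in SEM::EGR3. BLNK and DNTT were at or near 0 in both lines. The 14 erythroid markers summed to 4965 to 5267 CPM in SEM::mock and to 6172 to 6420 CPM in SEM::EGR3, with the globin genes HBG2 and HBZ at 2333 and 861 CPM in SEM::mock. The proB label was thus not borne out by the B lineage markers in SEM::mock, and each line also held high erythroid transcripts. The summed ranges of T and NK cell markers were 60 to 65.4 CPM in SEM::mock and 13.8 to 15.2 CPM in SEM::EGR3, those of myeloid markers 154 to 169 and 47.2 to 51.6 CPM, those of megakaryocyte markers 14.5 to 15.1 and 17.6 to 18.9 CPM, and those of fibroblast and epithelial markers 430 to 468 and 365 to 379 CPM. Sums of these lists rest on few genes. CD3D fell from 57.9 to 6.24 CPM, while CD4 and CD2, with at most 1 count in any SEM::mock library, stood at 4.38 and 2.26 CPM in SEM::EGR3. KRT8 went from 388 to 290 CPM, while COL1A1 rose from 3.61 to 43 CPM and COL1A2 from 2.91 to 22.6 CPM, and LYZ made up most of the myeloid sum. Each difference described here is one between these 2 sets of libraries. A difference in EGR3 and any other difference between the lines cannot be told apart, and in bulk RNA fewer cells of a type and less RNA per cell cannot be told apart. The libraries held 5286115 to 6181388 counts in SEM::mock and 7293092 to 15106018 in SEM::EGR3, so 50 counts stood for 8.34 to 9.77 CPM in SEM::mock and for 3.21 to 6.71 CPM in SEM::EGR3.

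That gap in depth shaped the list. In 131 of the 166 genes the 50 counts were reached in both lines, in 28 they were reached in SEM::EGR3 only, and in 7 in SEM::mock only. The 28 and the 7 entered through the counts of a single line, by a higher level there or, as for SLC25A41 with 7.98 CPM in SEM::EGR3 and 10.5 CPM in SEM::mock, by the greater depth of SEM::EGR3, so their differences are given as a description with no test. Genes are called at an adjusted p below 0.05 in edgeR's quasi-likelihood test, adjusted by the Benjamini-Hochberg method over all 15465 tested genes. Among the 131 genes measured in both lines, 37 were higher (28.2%), 64 were lower (48.9%) and 30 were not called. Of the 9412 genes of any kind that reached 50 counts in both lines, 29.2% were called higher and 40% lower, and the class counts given further on are to be read against these shares. For the 131 genes the median log2 fold change was -0.17, against -0.07 for those 9412 genes. Differences of at least 2-fold were called for 6 of the 131 upward and 14 downward (4.58% and 10.7%), beside 4.16% and 6.58% of the 9412 genes. The libraries of the lines did not overlap in 104 of the 131 genes (79.4%), beside 70.8%.

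Over all 166 genes, SEM::EGR3 was higher in 58 and lower in 72, a description only, since the count rule let 28 genes in through SEM::EGR3 alone. Of all tested genes 36.5% were higher and 32% lower, and of the 11519 genes that pass the same count rule 36.4% were higher and 35.2% lower. In the same way 23 of the 166 were higher and 20 lower by at least 2-fold, and 132 did not overlap between the lines, where the 11519 genes gave 12.3%, 7.22% and 72.9%. In this description, 21 of the 28 genes carried by SEM::EGR3 were higher, 1 was lower and 6 were not called. All 7 carried by SEM::mock were lower. These directions were largely set by the line through which each gene entered and are not a result about the genes. For the 7, the 50 counts stood for a higher CPM in every SEM::mock library than in any SEM::EGR3 library. The genes nearest the threshold inside it were SLC12A5 and SLC10A7, with 50 counts as the lowest of a line, and SLC66A3 and SLC36A4 with 51. Just outside lay SLC39A1 with 49, SLC13A4 with 48 and SLC6A15 with 44.

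**Figure D1:**
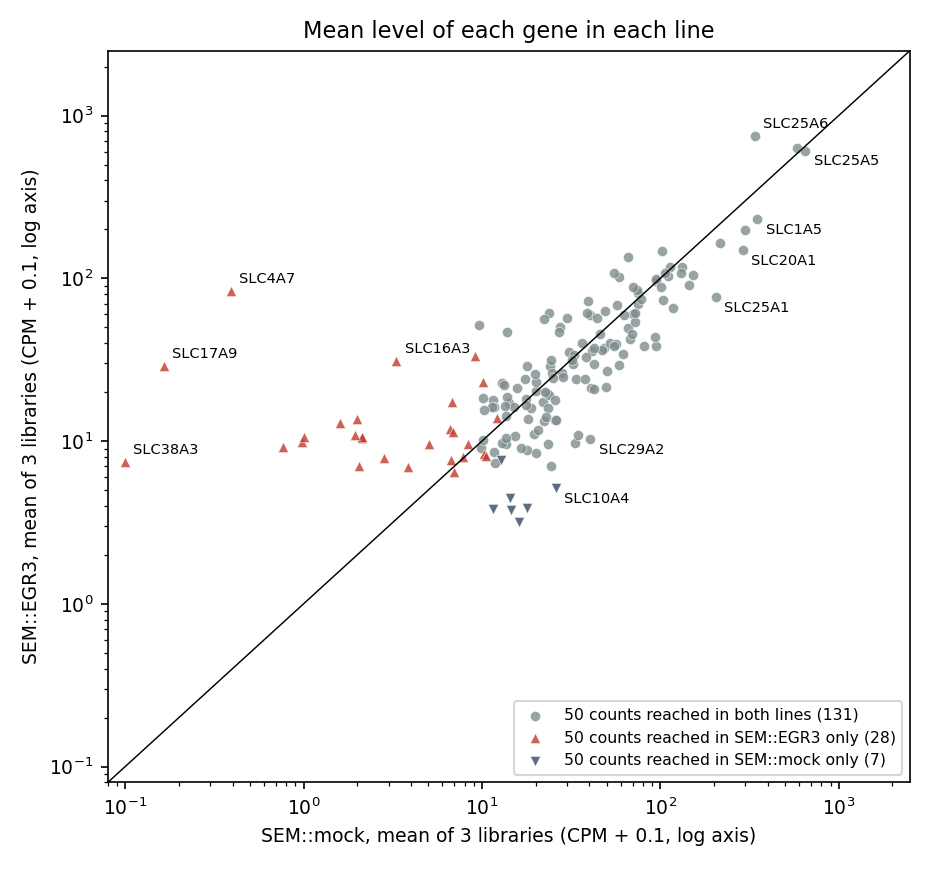
Mean level of each of the 166 solute carrier genes in SEM::mock (x axis) and SEM::EGR3 (y axis), in CPM with 0.1 added, both axes logarithmic, with the line of equal level drawn. Grey circles are the 131 genes that reached 50 counts in both lines, red triangles the 28 that did so in SEM::EGR3 only and dark triangles the 7 in SEM::mock only; most genes lie near the line of equal level, while SLC4A7, SLC17A9 and SLC38A3 lie far above it.

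The 166 solute carrier genes together took nearly the same share of the listed counts in each line, while the levels within families differed. The 166 genes summed to 8492, 8547 and 8377 CPM in SEM::mock and to 8223, 8238 and 8191 CPM in SEM::EGR3. The ratio of the means was 0.97 with TMM factors and 1.02 without them, so its direction turned with the scaling. The median gene stood at 24.3 CPM in SEM::mock and 23.9 CPM in SEM::EGR3, and the 10 most abundant genes held 38.1% of the summed level in each line. In SEM::mock the order of the most abundant was SLC25A5, SLC25A3, SLC1A5, SLC25A6 and SLC43A3, and in SEM::EGR3 it was SLC25A6, SLC25A3, SLC25A5, SLC1A5 and SLC43A3. MACE-Seq reads a transcript at its 3′ end, so these CPM values were not divided by length. Of the 30 families with at least 2 of the 166 genes, 20 had members called in both directions, 6 had lower calls without higher ones and 4 had higher calls without lower ones. These counts include genes that entered through a single line. In SLC4, SLC16, SLC17, SLC26, SLC27, SLC29 and SLC36 every higher call belongs to a gene that entered through SEM::EGR3 only. In SLC6, SLC10, SLC17 and SLC45 the only lower call belongs to a gene that entered through SEM::mock only. Of the 11519 genes past the same count rule 36.4% were higher and 35.2% lower, so both directions are common among genes of any kind. The spread between replicates was small, with a median coefficient of variation of 7.56% in SEM::mock and 5.74% in SEM::EGR3.

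**Figure D2:**
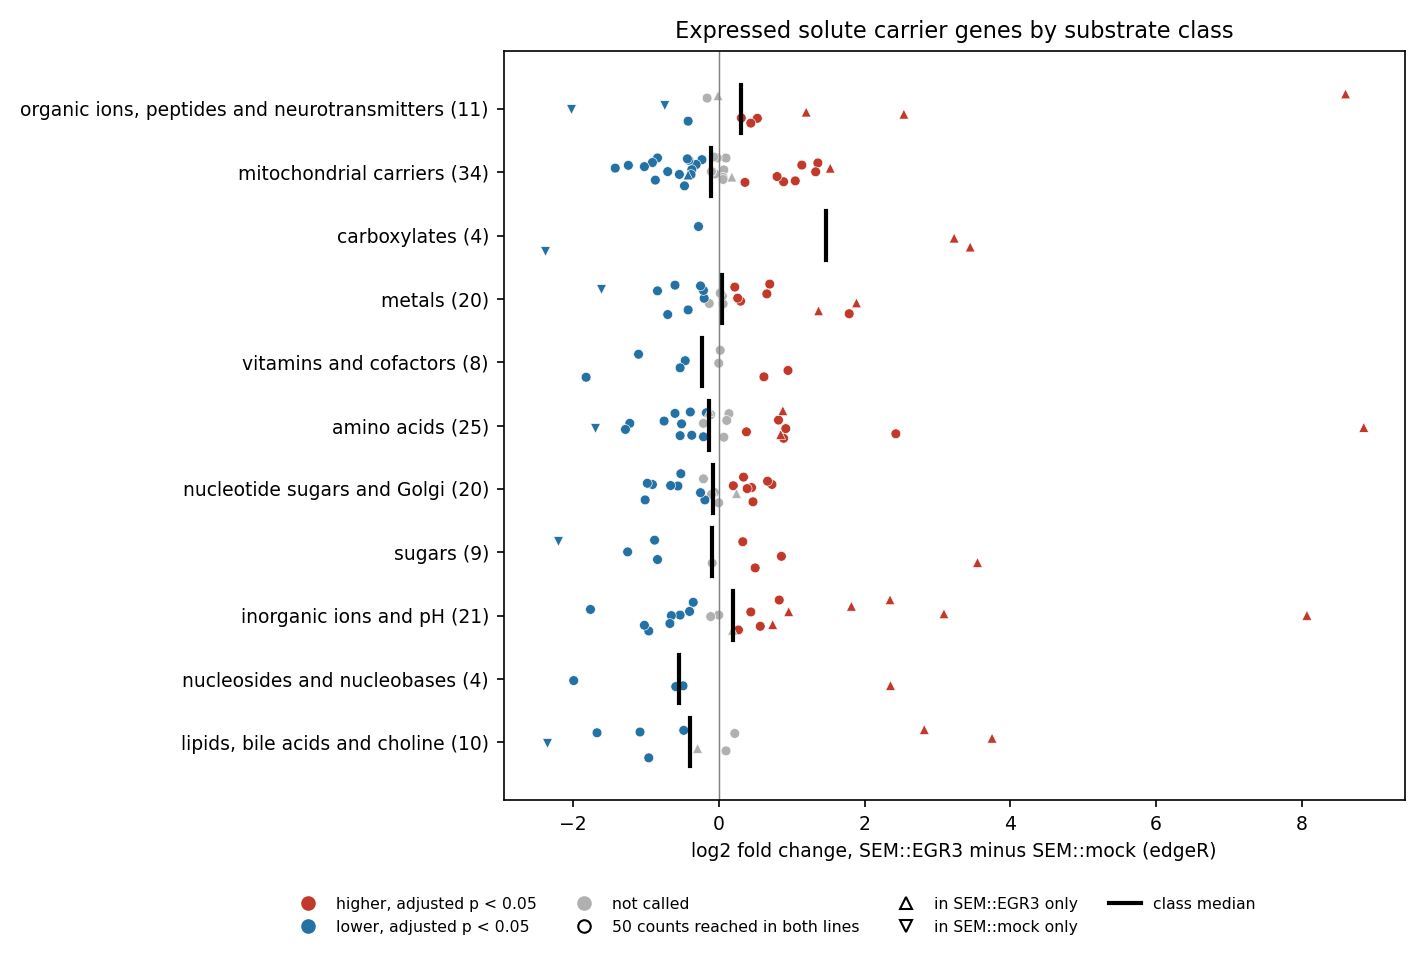
Log2 fold change of each gene between SEM::EGR3 and SEM::mock (x axis) by substrate class (y axis, number of genes in brackets, ordered by the ratio of the summed levels), with a black bar at the class median. Red, blue and grey mark genes called higher, called lower and not called. Each class holds both directions, but in carboxylates, lipids and nucleosides every higher gene entered through SEM::EGR3 counts only. The 3 points beyond 8 (SLC38A3, SLC17A9, SLC4A7) have almost no counts in SEM::mock, so that their position depends on the prior count of the fit.

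EGR proteins bind a GC-rich core that can be written GCGGGGGCG or GCGTGGGCG, and the promoters of the solute carrier genes were searched for both on either strand. A promoter was taken as the 250 bases before the start of the gene and the 50 after it (RefSeq, GRCh38.p14). Of the 166 genes 141 had one in the table, and 12 of these held the core (8.51%), beside 9.51% of the 10341 promoters of tested genes and 5.72% of all 27195 promoters. By direction, 7 of 48 promoters of higher genes (14.6%), 4 of 63 of lower genes (6.35%) and 1 of 30 of genes not called (3.33%) held it. Of all tested genes the shares were 10.6% for higher, 9.36% for lower and 8.19% for genes not called. The 4 promoters with the core among genes at least 2-fold higher are shown, because they belong to carriers whose levels are described below, with the core in capitals and each sequence written 5′ to 3′ on the strand of its gene. They are SLC27A1 (chr19:17470274-17470573, plus strand), SLC39A6 (chr18:36129291-36129590, minus strand), SLC25A6 (chrX:1392064-1392363, minus strand) and SLC17A5 (chr6:73653943-73654242, minus strand).
SLC27A1: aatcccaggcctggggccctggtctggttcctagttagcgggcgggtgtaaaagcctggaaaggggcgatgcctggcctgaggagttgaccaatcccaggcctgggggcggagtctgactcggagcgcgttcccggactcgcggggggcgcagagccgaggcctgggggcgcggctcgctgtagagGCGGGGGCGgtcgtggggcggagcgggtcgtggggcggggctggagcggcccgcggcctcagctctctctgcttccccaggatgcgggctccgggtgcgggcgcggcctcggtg
SLC39A6: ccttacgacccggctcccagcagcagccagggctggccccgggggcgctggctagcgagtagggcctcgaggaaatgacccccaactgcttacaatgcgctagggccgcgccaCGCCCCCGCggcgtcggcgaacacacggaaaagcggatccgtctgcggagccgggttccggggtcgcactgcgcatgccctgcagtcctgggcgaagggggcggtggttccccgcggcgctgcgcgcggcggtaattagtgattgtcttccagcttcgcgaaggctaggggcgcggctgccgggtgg
SLC25A6: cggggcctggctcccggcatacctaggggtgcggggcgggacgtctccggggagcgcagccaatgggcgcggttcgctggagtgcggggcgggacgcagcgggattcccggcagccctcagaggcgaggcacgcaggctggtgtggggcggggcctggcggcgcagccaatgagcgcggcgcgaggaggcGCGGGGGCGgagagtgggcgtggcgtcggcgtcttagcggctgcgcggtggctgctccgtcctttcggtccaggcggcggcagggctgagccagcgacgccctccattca
SLC17A5: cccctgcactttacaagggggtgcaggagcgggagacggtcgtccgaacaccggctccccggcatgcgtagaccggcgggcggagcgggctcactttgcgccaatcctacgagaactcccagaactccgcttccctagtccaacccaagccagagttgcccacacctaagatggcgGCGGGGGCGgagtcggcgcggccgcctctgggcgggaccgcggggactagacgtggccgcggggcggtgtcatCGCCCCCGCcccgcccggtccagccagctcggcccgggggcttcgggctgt
The core began at position 187 of the window in SLC27A1, at 114 in SLC39A6, at 191 in SLC25A6 and at 177 in SLC17A5, counted from 1 at the 5′ end. SLC39A6 held it on the other strand, and SLC17A5 held a further copy on the other strand. The core was held by 4 of the 20 promoters of genes at least 2-fold higher and by none of the 16 of genes at least 2-fold lower. Beside the 10.6% and 9.36% of all tested higher and lower genes, these sets are too small to show a difference by direction. SLC27A1 and SLC17A5 also entered through SEM::EGR3 only. A match is a string of letters and not a binding measurement.

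The mitochondrial carriers were the most abundant class and summed to 2832 ± 26.8 CPM in SEM::mock and 3118 ± 43.4 CPM in SEM::EGR3 (mean ± SD, n = 3 libraries each, as for each such value below). Of the 31 measured in both lines, 7 were higher and 15 lower. The ADP/ATP carriers, which exchange cytosolic ADP for matrix ATP, differed by paralog. SLC25A6 stood at 339, 344 and 332 CPM in SEM::mock and at 723, 784 and 734 CPM in SEM::EGR3. Its lines were far apart, with a log2 fold change of 1.14 (SE 0.05, adjusted p = 7.48e-16). SLC25A4, the paralog of muscle and heart, had 48.9, 45.4 and 55.1 CPM in SEM::mock and 19.7, 24 and 20.5 CPM in SEM::EGR3, lower by more than 2-fold with no overlap (log2 fold change -1.24, SE 0.09, adjusted p = 1.98e-11). SLC25A5, the paralog of dividing cells, had 671, 629 and 650 CPM in SEM::mock and 615, 607 and 603 CPM in SEM::EGR3. It was not called (log2 fold change -0.10, SE 0.05, adjusted p = 0.0863), although the lines did not overlap. Without SEM::mock replicate 2 its adjusted p was 0.0429, within a range of 0.0429 to 0.727 over 13 alternatives. SLC25A6 thus made up 32.6% ± 1.04 of the summed ADP/ATP carrier level in SEM::mock and 54.3% ± 1.08 in SEM::EGR3, while the sum went from 1038 ± 20.4 to 1377 ± 32.9 CPM. SLC25A5 and SLC25A6 have processed pseudogenes, and SLC25A6 lies in the region that the X and Y chromosomes share, so how reads were placed among copies could move these levels.

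Other carriers of the inner membrane also differed in both directions. SLC25A1, which exports citrate to the cytosol for lipid synthesis, fell from 195, 220 and 201 CPM in SEM::mock to 79.1, 76.2 and 73.9 CPM in SEM::EGR3. That was the largest decrease among the SLC25 genes, with no overlap (log2 fold change -1.42, SE 0.06, adjusted p = 1.93e-16). SLC25A24, which exchanges ATP-magnesium for phosphate, fell by 1.02 on the log2 scale, and SLC25A23, a carrier of the same substrates, rose by 1.05. SLC25A29, which carries basic amino acids, went from 23.8 ± 2.61 to 61.0 ± 2.84 CPM, and SLC25A44, which carries branched-chain amino acids, from 22.2 ± 1.89 to 55.9 ± 1.16 CPM (adjusted p = 6.49e-13 and 5.28e-13, edgeR). SLC25A20, which exchanges carnitine and acylcarnitine, was lower at 11 ± 1.04 CPM than the 19.4 ± 1.48 CPM of SEM::mock (log2 fold change -0.84, SE 0.12, adjusted p = 1.41e-06). The phosphate carrier SLC25A3 was abundant in both lines, at 585 ± 2.76 CPM in SEM::mock and 629 ± 4.49 CPM in SEM::EGR3. It was not called (adjusted p = 0.0571), but it was called without normalization factors (adjusted p = 0.00177, range 0.00177 to 0.205 over 13 alternatives). SLC25A45 reached 50 counts in SEM::EGR3 only, at 7.72 ± 0.433 CPM there and 2.71 ± 0.911 CPM in SEM::mock.

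**Figure D3:**
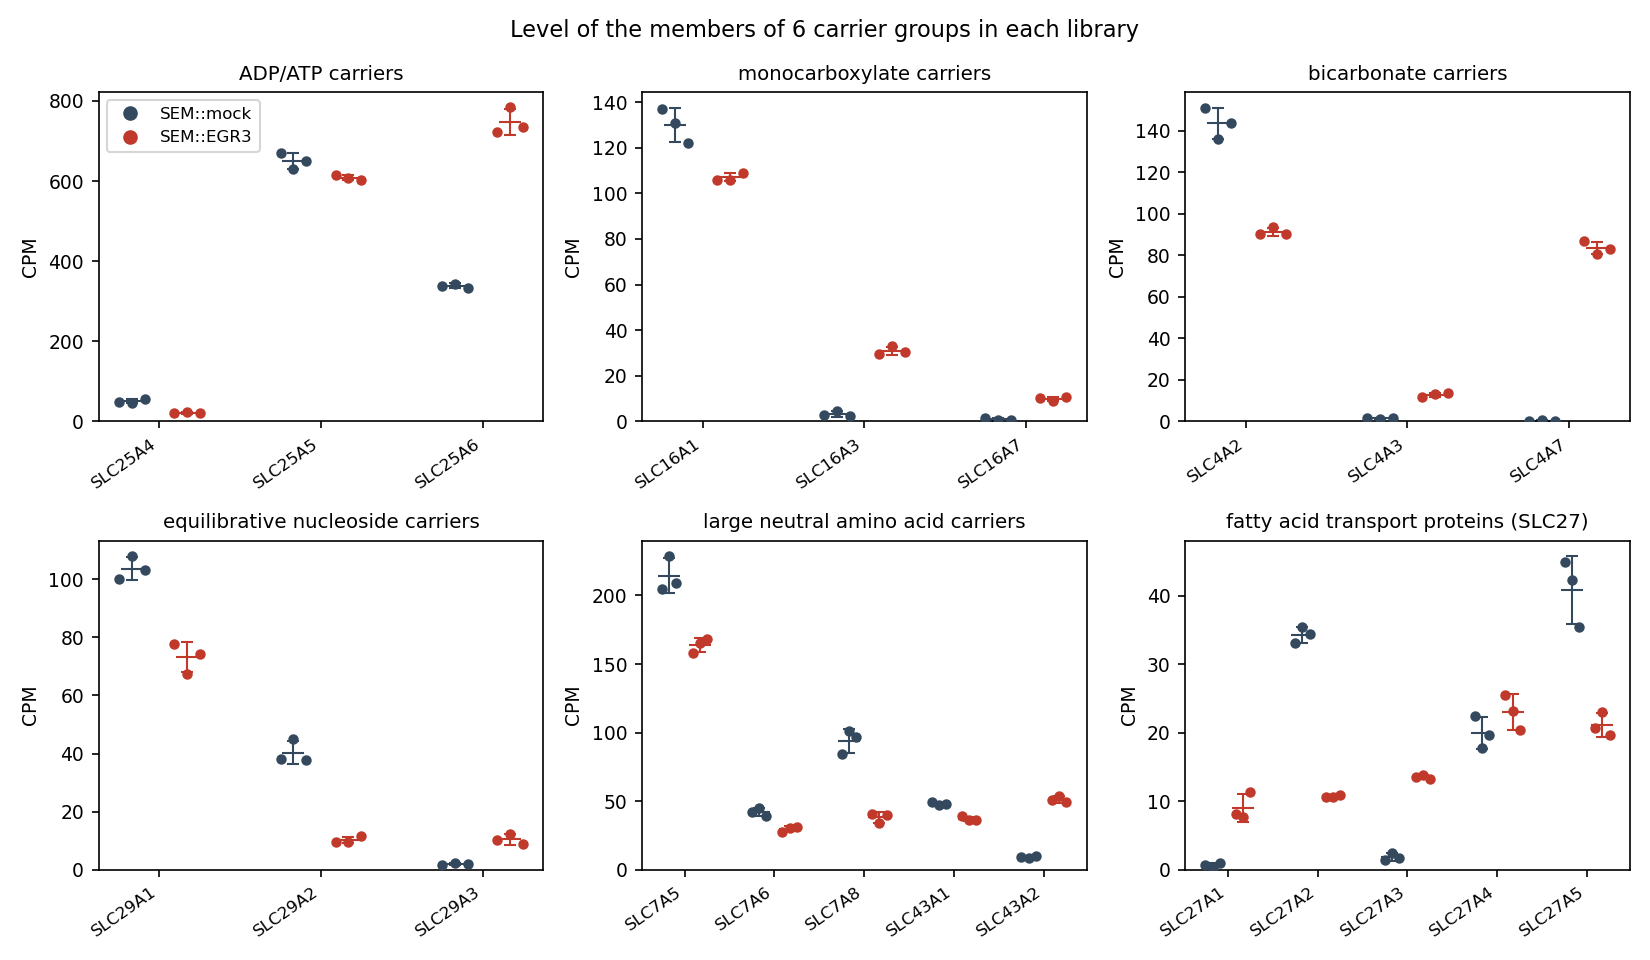
Level in CPM (y axis, from 0) of the members of 6 carrier groups (x axis) in each SEM::mock library (dark) and SEM::EGR3 library (red), with the mean and SD of each line. In each group at least 1 member is higher and at least 1 lower in SEM::EGR3, as for SLC25A6 and SLC25A4 or SLC16A3 and SLC16A1. In the monocarboxylate, bicarbonate, nucleoside and SLC27 groups every member called higher entered through SEM::EGR3 counts only.

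The amino acid carriers summed to 1511 ± 48.9 CPM in SEM::mock and 1389 ± 32.3 CPM in SEM::EGR3, and of the 20 measured in both lines 5 were higher and 10 lower. SLC1A5, the main glutamine uptake carrier of dividing cells, had 331, 367 and 347 CPM in SEM::mock and 240, 222 and 229 CPM in SEM::EGR3. Every SEM::EGR3 library was below every SEM::mock library (log2 fold change -0.60, SE 0.06, adjusted p = 6.98e-10). SLC38A1, another glutamine carrier, was higher instead, at 39.2, 42.2 and 35.9 CPM against 77.4, 66.5 and 73.0 CPM (log2 fold change 0.89, SE 0.08, adjusted p = 3.28e-10). SLC38A2, which takes up small neutral amino acids, was not called at 113 ± 2.98 and 118 ± 2.37 CPM (adjusted p = 0.315), except without normalization factors (adjusted p = 0.034, range 0.034 to 0.695 over 13 alternatives). The 4 glutamine carriers SLC1A5, SLC38A1, SLC38A2 and SLC38A5 summed to 575 ± 16.9 CPM in SEM::mock and 490 ± 11 CPM in SEM::EGR3, and the share of SLC38A1 in that sum was 6.80% ± 0.448 and 14.8% ± 0.788.

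LAT1, which exchanges glutamine for leucine and other large neutral amino acids, consists of the transport chain SLC7A5 and the surface chain SLC3A2. SLC7A5 had 205, 229 and 209 CPM in SEM::mock and 158, 165 and 168 CPM in SEM::EGR3, lower with no overlap (log2 fold change -0.39, SE 0.06, adjusted p = 1.53e-06). SLC3A2 had 122, 148 and 127 CPM in SEM::mock and 130, 105 and 116 CPM in SEM::EGR3, and the lines overlapped. Its call was marginal (log2 fold change -0.17, SE 0.07, adjusted p = 0.0469) and was lost in 8 of 13 alternatives, over which adjusted p ran from 0.0072 to 0.3. It was lost without SEM::EGR3 replicate 2 (0.232), without SEM::EGR3 replicate 3 (0.096) and without SEM::mock replicate 2 (0.3), and with the replicate block it was 0.0923. SLC7A8, a second transport chain for SLC3A2, fell from 94.0 ± 8.67 to 38.3 ± 3.78 CPM (log2 fold change -1.28, SE 0.08, adjusted p = 3.26e-13). SLC43A2, a uniporter for branched-chain and other large neutral amino acids, moved the other way, with 9.68, 8.84 and 9.96 CPM in SEM::mock and 50.6, 53.9 and 49.1 CPM in SEM::EGR3. This was the largest increase among the 131 genes measured in both lines (log2 fold change 2.43, SE 0.10, adjusted p = 1.98e-16). SLC43A2 made up 2.33% ± 0.246 of the summed level of SLC7A5, SLC7A6, SLC7A8, SLC43A1 and SLC43A2 in SEM::mock and 16% ± 0.888 in SEM::EGR3, while that sum fell from 409 ± 21.2 to 320 ± 4.25 CPM.

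Among the remaining amino acid carriers, SLC7A1, the uptake carrier of arginine and lysine, rose from 58.5 ± 7.83 to 102 ± 10.9 CPM (log2 fold change 0.82, SE 0.09, adjusted p = 6.18e-09). SLC66A2 rose from 29.8 ± 1.86 to 56.8 ± 3.37 CPM, and SLC38A6 fell from 19.9 ± 3.94 to 8.40 ± 0.920 CPM. SLC38A9, the lysosomal arginine sensor of the mTORC1 pathway, was lower at 13.1 ± 0.720 CPM than the 22.2 ± 0.657 CPM of SEM::mock (log2 fold change -0.75, SE 0.11, adjusted p = 1.42e-06). SLC38A9, like SLC25A20 and SLC25A23, was named after its value was seen. SLC38A3, a glutamine and histidine carrier, had no count in any SEM::mock library and was counted 87, 57 and 79 times in SEM::EGR3. With each SEM::mock library set to the floor of 3 counts, its SEM::EGR3 level was at least 13.6-fold higher. SLC6A6, the taurine carrier, reached 50 counts in SEM::mock only, at 14.2 ± 0.929 CPM there and 4.34 ± 0.599 CPM in SEM::EGR3.

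The carboxylate carriers were 4 members of SLC16 and summed to 150 ± 8.91 CPM in SEM::mock and 151 ± 1.52 CPM in SEM::EGR3, with overlapping libraries, while the make-up of that sum differed. SLC16A1, the monocarboxylate carrier found in most cells, had 137, 131 and 122 CPM in SEM::mock and 106, 106 and 109 CPM in SEM::EGR3. It was lower with no overlap (log2 fold change -0.28, SE 0.06, adjusted p = 1.49e-04). SLC16A3, the lactate exporter of glycolytic cells, was counted 16, 27 and 12 times in SEM::mock and 462, 245 and 275 times in SEM::EGR3, or 3.22 ± 1.14 and 30.9 ± 1.70 CPM, a ratio of 9.6. SLC16A7, which takes up pyruvate and lactate with high affinity, was counted 9, 4 and 2 times in SEM::mock and 158, 66 and 95 times in SEM::EGR3, or 0.881 ± 0.625 and 9.82 ± 0.851 CPM. SLC16A5 was reversed, at 16.1 ± 1.55 CPM in SEM::mock and 3.08 ± 0.306 CPM in SEM::EGR3. These 3 genes each passed the count rule in a single line. Of the summed level of SLC16A1, SLC16A3 and SLC16A7, SLC16A3 made up 2.39% ± 0.801 in SEM::mock and 21.0% ± 1.12 in SEM::EGR3. A gene on the opposite strand, CSNK1D, is annotated over the last 500 bases of SLC16A3, and whether strand was used in counting is not given in the sources used here. BSG, the partner that brings SLC16A1 and SLC16A3 to the surface, had 557, 556 and 569 CPM in SEM::mock and 875, 905 and 810 CPM in SEM::EGR3. It was higher with no overlap (log2 fold change 0.62, SE 0.05, adjusted p = 1.04e-10). EMB, the partner of SLC16A7, had no count in SEM::mock and was counted 411, 191 and 241 times in SEM::EGR3, at least 48.7-fold higher against the floor of 3 counts per library.

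The nucleoside and nucleobase carriers summed to 448, 435 and 453 CPM in SEM::mock and 290, 289 and 300 CPM in SEM::EGR3, so that the SEM::mock level was 1.52 times the SEM::EGR3 level. All 3 members measured in both lines were lower. SLC29A1, the equilibrative carrier through which cytarabine enters cells, had 100, 108 and 103 CPM in SEM::mock and 77.7, 67.5 and 74.4 CPM in SEM::EGR3. The lines did not overlap (log2 fold change -0.49, SE 0.07, adjusted p = 3.34e-07). SLC29A2, its paralog, had 38.2, 45.0 and 37.9 CPM and 9.51, 9.66 and 11.6 CPM, the largest decrease among the 131 genes measured in both lines (log2 fold change -1.99, SE 0.11, adjusted p = 3.2e-14). SLC43A3, which carries purine nucleobases, fell from 299 ± 16.4 to 199 ± 5.97 CPM (log2 fold change -0.59, SE 0.06, adjusted p = 1.04e-09). SLC29A3, the equilibrative carrier of lysosomes, reached 50 counts in SEM::EGR3 only, at 10.5 ± 1.85 CPM there and 2.02 ± 0.391 CPM in SEM::mock. SLC29A1 is annotated 19945 bases from SLC35B2, the carrier of the sulfate donor of the Golgi, which was lower as well (log2 fold change -0.52).

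The carriers of inorganic ions and of pH summed to 762 ± 13.8 CPM in SEM::mock and 650 ± 11.3 CPM in SEM::EGR3, and of the 14 measured in both lines 4 were higher and 8 lower. SLC20A1, the sodium-phosphate carrier that is also a retrovirus receptor, had 287, 307 and 276 CPM in SEM::mock and 147, 153 and 146 CPM in SEM::EGR3. It was lower with a wide gap between the lines (log2 fold change -0.96, SE 0.06, adjusted p = 9.09e-14), and its paralog SLC20A2 was lower by a smaller step (log2 fold change -0.35, SE 0.11, adjusted p = 0.00576). SLC8B1, which lets calcium out of mitochondria in exchange for sodium, had 31.9, 34.2 and 33.2 CPM and 10.0, 8.99 and 10.0 CPM (log2 fold change -1.76, SE 0.11, adjusted p = 1.72e-13). SLC9B2, a sodium-proton exchanger, fell by 1.02 on the log2 scale (SE 0.13). SLC12A2, the cotransporter of sodium, potassium and chloride, rose from 40.4 ± 2.41 to 59.3 ± 7.90 CPM (log2 fold change 0.57, SE 0.09, adjusted p = 4.18e-06), and SLC12A7, which lets potassium and chloride out, fell from 67.2 ± 3.51 to 42.0 ± 1.88 CPM.

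SLC4A7, a sodium-bicarbonate cotransporter that loads base into the cell, was nearly absent from one line. It was counted 1, 3 and 1 times in SEM::mock and 1349, 602 and 756 times in SEM::EGR3, or 83.5 ± 2.96 CPM. Per unit of depth the summed counts stood at a ratio of 283, which rests on 5 counts in SEM::mock and is a description only. SLC4A3, a chloride-bicarbonate exchanger, went from 1.5 ± 0.226 to 12.9 ± 0.959 CPM, and SLC26A11, a carrier of sulfate and other anions, from 2.02 ± 0.391 to 10.4 ± 0.383 CPM. All 3 passed the rule through SEM::EGR3 only. SLC4A2, the chloride-bicarbonate exchanger found in most cells, had 151, 136 and 144 CPM in SEM::mock and 90.5, 93.6 and 90.1 CPM in SEM::EGR3, lower with no overlap (log2 fold change -0.65, SE 0.06, adjusted p = 4.59e-10). Of the summed level of the 3 bicarbonate carriers, SLC4A2 made up 98.8% ± 0.172 in SEM::mock and 48.7% ± 1.05 in SEM::EGR3, and SLC4A7 0.204% ± 0.137 and 44.5% ± 1.43. The median log2 fold change of the 14 genes measured in both lines was -0.37. Over all 21 genes, of which 7 entered through SEM::EGR3 only, it was 0.19, and 0.01 without SEM::mock replicate 2.

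The carriers of lipids, bile acids and choline showed the lowest ratio of summed levels between the lines, with 283, 292 and 282 CPM in SEM::mock and 193, 179 and 181 CPM in SEM::EGR3. The SEM::mock level was 1.55 times the SEM::EGR3 level. These sums include genes that entered through a single line, named below. Of the 6 measured in both lines 4 were lower and 2 were not called. SLC44A1, a choline carrier, had 86.6, 96.9 and 96.1 CPM in SEM::mock and 47.2, 41.6 and 41.9 CPM in SEM::EGR3 (log2 fold change -1.08, SE 0.07, adjusted p = 1.29e-12), and its paralog SLC44A2 went from 33.7 ± 2.48 to 23.9 ± 1.07 CPM. In the SLC27 family, which couples fatty acid uptake to activation with coenzyme A, the paralogs moved in opposite directions. SLC27A2 had 33.1, 35.5 and 34.4 CPM in SEM::mock and 10.7, 10.7 and 10.9 CPM in SEM::EGR3 (log2 fold change -1.67, SE 0.10, adjusted p = 2.13e-13). SLC27A5 fell from 40.9 ± 4.94 to 21.2 ± 1.73 CPM, and SLC27A4 was not called at 20 ± 2.35 and 23.1 ± 2.64 CPM. SLC27A1 was counted 4, 2 and 5 times in SEM::mock and 127, 57 and 104 times in SEM::EGR3, or 0.671 ± 0.323 and 9.08 ± 2.06 CPM. SLC27A3 went from 1.89 ± 0.559 to 13.6 ± 0.250 CPM. Both reached 50 counts in SEM::EGR3 only, and the promoter of SLC27A1 is the first of those printed above. The 5 SLC27 genes summed to 97.8 ± 5.25 CPM in SEM::mock and 77.7 ± 1.67 CPM in SEM::EGR3. SLC10A4, a member of the bile acid family, was carried by SEM::mock alone, at 25.9 ± 4.40 CPM against 5.04 ± 0.893 CPM.

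**Figure D4:**
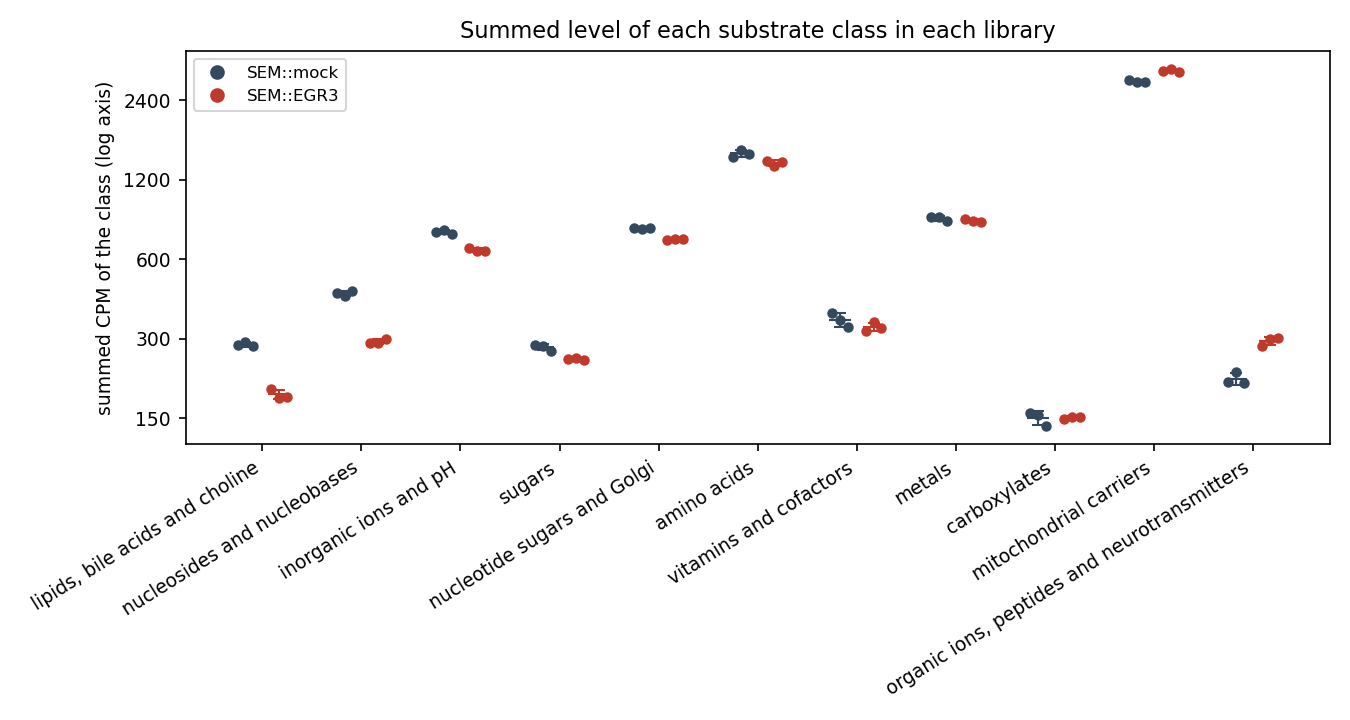
Summed level of each substrate class in each library (y axis, CPM, logarithmic), SEM::mock in dark and SEM::EGR3 in red, with the mean and SD of each line, ordered by the ratio of the means (x axis). The lines lie furthest apart in lipids (285 and 184 CPM), nucleosides (445 and 293 CPM) and organic ions (212 and 294 CPM). By smaller ratios they also lie apart in inorganic ions, sugars, nucleotide sugars, amino acids and mitochondrial carriers. They overlap in vitamins, metals and carboxylates. In every class but vitamins the sum includes genes that entered through a single line.

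The metal carriers had overlapping sums, at 857 ± 16.8 CPM in SEM::mock and 841 ± 9.11 CPM in SEM::EGR3, a ratio of 0.982 that was 1.03 without normalization factors, and of the 17 measured in both lines 6 were higher and 7 lower. The zinc carriers of the SLC39 family, which bring zinc into the cytosol, parted by paralog. SLC39A6 had 12.8, 14.2 and 14.3 CPM in SEM::mock and 54.3, 40.6 and 45.1 CPM in SEM::EGR3 (log2 fold change 1.79, SE 0.12, adjusted p = 1.07e-12). SLC39A3 had 118, 119 and 114 CPM and 66.7, 67.9 and 61.3 CPM, lower with no overlap (log2 fold change -0.84, SE 0.06, adjusted p = 1.14e-11). SLC39A10 and SLC39A11 were lower too (log2 fold changes -0.60 and -0.70), and SLC39A8, which also carries manganese and had the highest mean of the class over all 6 libraries, was not called (log2 fold change 0.02, SE 0.06, adjusted p = 0.753). In the SLC30 family, which moves zinc out of the cytosol, SLC30A1 is the exporter of the cell surface. It was counted 49, 50 and 52 times in SEM::mock and 557, 247 and 277 times in SEM::EGR3, or 9.04 ± 0.977 and 33.1 ± 2.65 CPM, and the 49 counts of SEM::mock replicate 1 are why it entered through SEM::EGR3 alone. SLC30A3 went from 6.70 ± 1.45 to 17.2 ± 0.843 CPM, and SLC30A10, a manganese exporter carried by SEM::mock alone, from 11.4 ± 2.20 to 3.70 ± 0.252 CPM. The share of SLC30A1 in the summed SLC30 level was 3.92% ± 0.628 in SEM::mock and 14.3% ± 1.03 in SEM::EGR3, while that sum was 232 ± 11.5 and 232 ± 3.05 CPM.

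The vitamin and cofactor carriers overlapped in their sums, at 353 ± 20.9 CPM in SEM::mock and 332 ± 11.9 CPM in SEM::EGR3. All 8 were measured in both lines, and 2 were higher and 4 lower. SLC19A1, the reduced folate carrier through which methotrexate enters cells, had 55.4, 57.6 and 51.4 CPM in SEM::mock and 36.4, 38.6 and 39.8 CPM in SEM::EGR3. It was lower with no overlap (log2 fold change -0.53, SE 0.08, adjusted p = 1.16e-06). Its paralog SLC19A2, a thiamine carrier, had 28.5, 21.4 and 22.9 CPM and 6.42, 7.91 and 6.60 CPM (log2 fold change -1.82, SE 0.14, adjusted p = 1.72e-11). SLC5A6, which takes up biotin and pantothenate, fell from 81.1 ± 7.69 to 38.5 ± 3.76 CPM (log2 fold change -1.10, SE 0.08, adjusted p = 1.36e-11). SLC48A1, which releases heme from lysosomes, rose from 55.2 ± 2.24 to 107 ± 3.82 CPM (log2 fold change 0.95, SE 0.07, adjusted p = 2.77e-12). SLC46A3 rose from 10.2 ± 0.505 to 15.5 ± 2.50 CPM, and the riboflavin carrier SLC52A2 was not called at 106 ± 11.5 and 108 ± 5.10 CPM (adjusted p = 0.782). HDAC7 on the opposite strand is annotated over the end of SLC48A1.

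The sugar carriers, from which the glucose carriers SLC2A1 and SLC2A3 were left out by name, summed to 279 ± 7.88 CPM in SEM::mock and 251 ± 1.93 CPM in SEM::EGR3. Of the 7 measured in both lines 3 were higher and 3 lower. The SLC37 family, which exchanges sugar phosphates for phosphate in the endoplasmic reticulum, was lower in all 3 members. SLC37A4, the glucose 6-phosphate carrier, had 69.7, 59.1 and 56.4 CPM in SEM::mock and 31.7, 37.3 and 32.9 CPM in SEM::EGR3 (log2 fold change -0.88, SE 0.09, adjusted p = 1.87e-09). SLC37A1 fell by 1.25 on the log2 scale, and SLC37A3 by 0.84. SLC5A3, the myo-inositol carrier and the most abundant of the class, rose from 70.3 ± 4.86 to 88.3 ± 3.50 CPM (log2 fold change 0.33, SE 0.07, adjusted p = 1.10e-04), and MRPS6 shares its strand and its end. SLC2A11, a facilitative hexose carrier, rose from 10.0 ± 0.812 to 18.2 ± 1.01 CPM, and SLC45A4 from 11.3 ± 0.219 to 16 ± 0.82 CPM. SLC2A6, a hexose carrier of lysosomes, was counted 6, 4 and 5 times in SEM::mock and 164, 81 and 93 times in SEM::EGR3, and SLC45A3 was carried by SEM::mock alone at 17.8 ± 1.33 CPM against 3.80 ± 0.219 CPM.

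The carriers of nucleotide sugars and of the Golgi summed to 787 ± 7.65 CPM in SEM::mock and 713 ± 6.35 CPM in SEM::EGR3. Of the 19 measured in both lines 7 were higher and 8 lower, and 1 of them differed by at least 2-fold. SLC35A1, which brings CMP-sialic acid into the Golgi, rose from 11.4 ± 1.29 to 17.9 ± 1.75 CPM (log2 fold change 0.67, SE 0.13, adjusted p = 6.47e-05). SLC35A5 rose from 13.2 ± 2.06 to 22 ± 0.937 CPM, and SLC35D1, a carrier of UDP-glucuronic acid, from 17.3 ± 1.08 to 23.9 ± 0.875 CPM. Its paralog SLC35D2 fell from 25.9 ± 2.61 to 13.3 ± 1.14 CPM, SLC35E3 from 25.5 ± 2.44 to 13.3 ± 1.09 CPM and SLC35F6 from 58.9 ± 3.68 to 29.4 ± 2.56 CPM (adjusted p = 3.09e-08, 9.12e-08 and 5.71e-11, edgeR). CENPA shares the strand and the end of SLC35F6. SLC35A4, the most abundant, was not called at 110 ± 6.97 and 103 ± 0.609 CPM, except without SEM::mock replicate 1 (adjusted p = 0.0201, range 0.0201 to 0.715 over 13 alternatives).

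The carriers of organic ions, peptides and neurotransmitters were the class with the highest ratio of summed levels, at 206, 224 and 204 CPM in SEM::mock and 282, 299 and 302 CPM in SEM::EGR3, a ratio of 1.39. Of the 5 measured in both lines 3 were higher and 1 lower. SLC6A8, the creatine carrier, made up the largest part, with 90.1, 119 and 95.3 CPM in SEM::mock and 134, 158 and 150 CPM in SEM::EGR3. It was higher with no overlap (log2 fold change 0.53, SE 0.08, adjusted p = 2.75e-06). SLC17A9, the carrier that loads ATP into vesicles, was counted 0, 0 and 1 times in SEM::mock and 492, 199 and 253 times in SEM::EGR3, or 28.7 ± 2.57 CPM. SLC17A5, which lets sialic acid out of lysosomes and whose promoter is printed above, went from 10.0 ± 2.31 to 23.1 ± 0.0933 CPM, and SLC6A13, a GABA carrier, from 1.85 ± 0.160 to 10.8 ± 1.48 CPM. SLC17A9, SLC17A5 and SLC6A13 passed through SEM::EGR3 only, and their gains are part of the ratio of the class, which is thus a description only. SLC16A9, a carnitine carrier, and SLC17A7, a vesicular glutamate carrier, were carried by SEM::mock alone, at 14.5 ± 0.651 and 12.7 ± 0.874 CPM there and 3.65 ± 0.455 and 7.56 ± 1.32 CPM in SEM::EGR3. SLC18B1, a vesicular polyamine carrier, was lower (log2 fold change -0.42, SE 0.14, adjusted p = 0.0114), a call lost without SEM::EGR3 replicate 1 (0.106) and with DESeq2 (0.0551), within a range of 0.00526 to 0.106 over 13 alternatives.

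**Figure D5:**
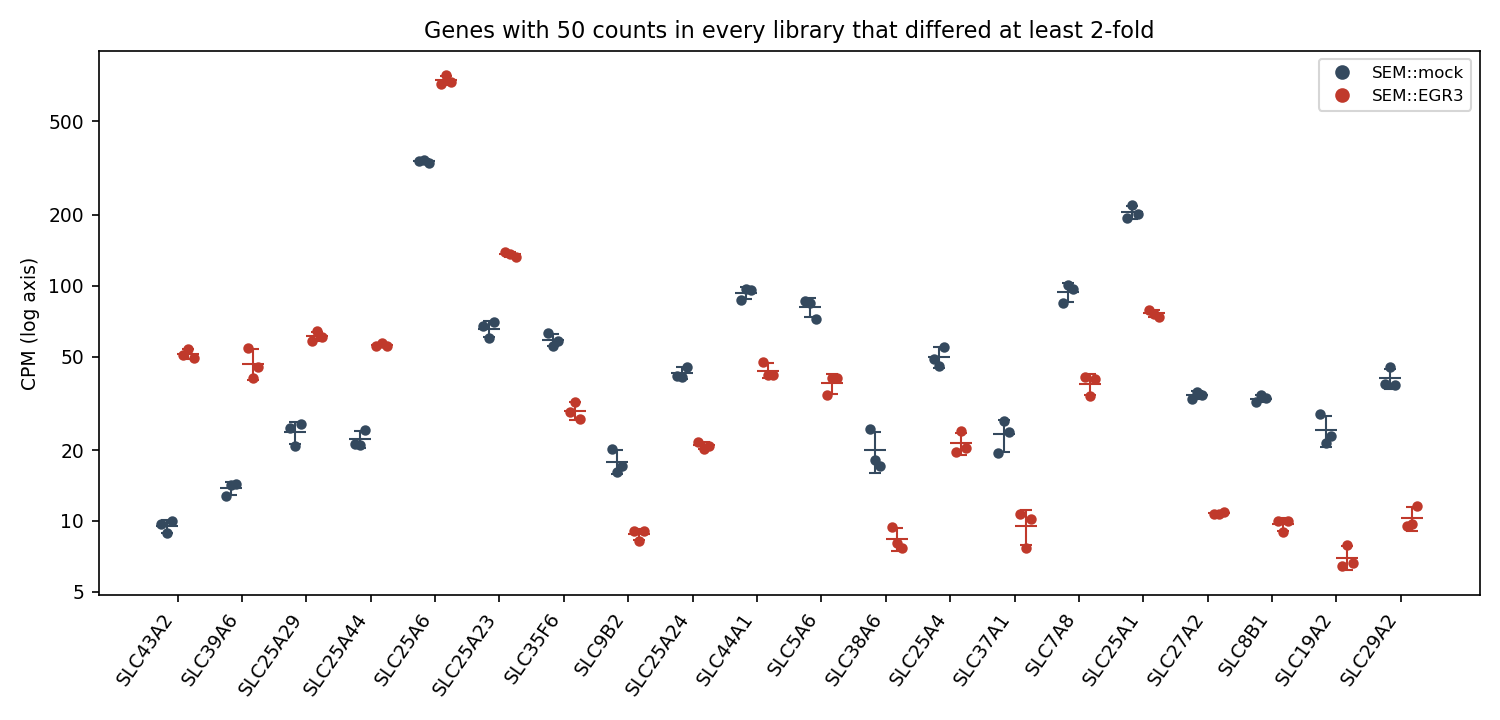
Level in CPM (y axis, logarithmic) in each SEM::mock library (dark) and SEM::EGR3 library (red) of the 20 genes (x axis) that reached 50 counts in every library and were called with at least a 2-fold difference, with the mean and SD of each line. The 6 genes at the left, from SLC43A2 to SLC25A23, are higher in SEM::EGR3 and the other 14, down to SLC29A2, are lower, with no overlap between the lines in any of the 20.

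Genes that work with the solute carriers, and carriers with other names, were read from fixed lists. Of all tested genes 36.5% were higher and 32% lower, and the counts of both lists are to be read against these shares. Of 17 partners and regulators 16 were found and 15 tested, and 5 were higher and 6 lower. Beside BSG and EMB, the list held NPTN, a further partner of monocarboxylate carriers, which rose from 39.6 ± 0.317 to 77.5 ± 4.27 CPM. LAPTM4B, which brings LAT1 to lysosomes, fell from 497 ± 11.2 to 179 ± 11.2 CPM (log2 fold change -1.47, SE 0.06, adjusted p = 1.87e-17), and the ubiquitin ligase NEDD4L fell by 1.03 on the log2 scale. Of 46 carriers with other names 43 were found and 30 tested, and 15 were higher and 8 lower. MFSD2A, a carrier of lysophospholipids, and SPNS3 had no count in SEM::mock and stood at 6.32 ± 0.468 and 3.12 ± 0.146 CPM in SEM::EGR3. RHAG, the ammonia channel of red cells, fell from 202 ± 4.84 to 66.8 ± 3.93 CPM, and SLCO2B1, an organic anion carrier, from 11.1 ± 2.03 to 3.74 ± 0.606 CPM. MPC1 and MPC2, the chains of the mitochondrial pyruvate carrier, named after their values were seen, rose from 43.5 ± 3.61 to 74.3 ± 3.10 CPM and from 112 ± 3.65 to 216 ± 8.39 CPM. RHAG is an erythroid gene, and the summed erythroid markers differed between the lines as given above.

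Some close neighbours on the genome had calls in opposite directions, which is given as a description only. In 5 pairs of the 166 genes the annotated genes lay less than 50000 bases apart (GENCODE 29, GRCh38). SLC25A41 and SLC25A23, on the same strand and 2300 bases apart, had log2 fold changes of -0.42 and 1.05, and SLC5A6 and SLC30A3, 40726 bases apart, had -1.10 and 1.37. Each of these pairs rests on a gene that entered through SEM::EGR3 only, SLC25A41 and SLC30A3. The libraries of SLC25A41 also overlapped between the lines (adjusted p = 0.0333, edgeR). In 41 of the 166 genes another annotated gene covered part of the last 500 bases, the part that MACE-Seq reads. Of these 13 were higher and 20 lower, and of the 125 genes free of such a neighbour 45 were higher and 52 lower. Both counts include genes that entered through a single line and are a description only. They stand beside 36.4% higher and 35.2% lower of the 11519 genes past the same count rule. Whether such a neighbour goes with a call was not tested. The solute carrier symbols below the count rule numbered 162, of which 38 were tested. Of these 17 were higher and 13 lower (44.7% and 34.2%), beside 36.5% and 32% of all tested genes.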

How the data were processed

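RNA of SEM::mock and SEM::EGR3 cells was measured by MACE-Seq (GenXPro), 3 biological replicates per line. The values deposited by the authors are counts, whole numbers with no normalization. The submitters' processing notes name bcl2fastq, Bowtie2, HTSeq and GRCh38, with versions, strand setting and treatment of multiply mapped reads not given in the sources used here. The 6 raw count columns were used, which spell the gene ERG3 in their headings. The 12 per-library columns and 6 pooled columns of normalized values and the authors' own comparison columns, which hold fold changes and p-values, were not used.

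Library totals were 5286115 to 15106018 counts, which limits the precision of genes near 50 counts. Genes that passed filterByExpr (15465) were fitted with edgeR 4.0.16 in R 4.3.3 (TMM factors, quasi-likelihood test, term for line only), with Benjamini-Hochberg adjustment over all of them. The standard error of a log2 fold change is its size divided by the square root of F. CPM are counts per 1000000 listed counts after TMM scaling. The procedure was tested on simulated counts. DESeq2 1.42.0, other scalings and filters, a replicate block, other member rules and the removal of each library were tried as alternatives. The replicates are separate biological samples of a line, so p-values measure the spread between them only.

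Each gene was put in 1 of 11 substrate classes by its best known substrate. Named genes were, in classes of at least 5, the 3 largest increases and 3 largest decreases at adjusted p below 0.05 without overlap between lines and the most abundant gene, all genes of smaller classes, and a list of well-studied carriers, 76 in all. Of the other lists, the 2 largest increases and decreases that passed were named. Genes outside these rules were named after their values were seen. Members, classes and lists were chosen with earlier results of these data known. Positions came from GENCODE 29 and promoters from RefSeq (GRCh38.p14). Where a gene had at most 3 counts in every SEM::mock library, no fitted fold change is printed. Not every gene below the count rule is reported here.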

Additional observations from a re-analysis of the deposited data

How the results depend on the processing

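No named gene that was called turned its direction in any alternative tried, while SLC39A8 and SLC52A2, not called and near 0, changed sign without single libraries, as did the class median of metals (0.04, and -0.02 without SEM::mock replicate 2). Requiring 50 counts in every library of both lines left 131 genes, of which 37 were higher and 6 at least 2-fold higher, against 58 and 23 of the 166, since that rule keeps fewer genes. Requiring at least 10 counts in every library tested 155 of the 166, of which 14 were at least 2-fold higher, and moved the class medians (log2 fold change) of carboxylates to -0.23, of inorganic ions and pH to -0.06, of lipids, bile acids and choline to -0.67 and of sugars to -0.41, since the genes with few counts in SEM::mock drop out. Without normalization factors the median of all tested genes was 0.11 instead of 0.03, 63 genes were higher and 62 lower (50.4% of calls higher instead of 44.6%), and the class medians were -0.05 for amino acids, -0.02 for mitochondrial carriers, -0.47 for nucleosides and nucleobases and -0.01 for nucleotide sugars and Golgi. The ratio of summed levels of SEM::EGR3 to SEM::mock then turned for all members (1.02 instead of 0.97), metals (1.03 instead of 0.982) and SLC39 genes (1.01 instead of 0.956). Leaving out each library in turn gave class medians of 0.01 to 0.27 for inorganic ions and pH, the lowest without SEM::mock replicate 2. It gave 54 to 59 higher and 64 to 71 lower genes. DESeq2 gave 54 higher and 63 lower. Except for the 131 genes, these counts include genes that entered through a single line, as do those with the replicate block below. They are a description only, and the shares of all genes called under each alternative are not given here.

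The replicate numbers did not pair the libraries. Deviations of libraries with the same number correlated at -0.138, -0.0935 and -0.0431, and 0 libraries correlated best with their own number. With the replicate block 57 genes were higher and 68 lower, and SLC3A2 was no longer called (adjusted p = 0.0923), while no other named gene changed its call. With 5286115 counts in the shallowest library, 3 counts stand for up to 0.586 CPM, so ratios of genes at or below that level in SEM::mock rest on few counts.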
